A study of Mus musculus with 18 samples.

Results

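Wild type basophils carrying a tamoxifen-inducible recombinase were cultured with or without 4-hydroxytamoxifen, and the drug-treated arrays were compared with the untreated ones across every probe that carries 1 gene symbol. Members were the 6 arrays of these 2 groups among the 18 arrays of the series, chosen by genotype and treatment label alone, with 21876 of the 26423 probes on the array. These probes stood for 19084 genes, of which 2424 had several probes and were each represented by their brightest probe. The study asked what loss of Cebpa does to basophils, and the wild type pair holds what the drug and the activated recombinase do where Cebpa is not floxed.

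Basophils were purified from C57Bl/6 mice of the genotype Cebpa +/+ RosaYFP/creER and kept for 5 days in complete IDMEM with 20 ng/ml IL-3. The treated group received 100 nM 4-hydroxytamoxifen for 5 days and the untreated group received none. The comparison groups were basophils of the genotype Cebpa f/f RosaYFP/creER with the same culture, dose and time, also 3 arrays a side. Levels in 2 more groups are quoted for reference, namely basophils taken without culture from marrow of mice given IL-3 complexed with its antibody, and mast cells grown from marrow in IL-3. Every cultured basophil group therefore carried both the CreER fusion and the YFP reporter allele. No cultured basophil group lacked CreER, so the drug itself and the activity of the recombinase cannot be told apart in these arrays. The labels do not say whether the replicates came from separate mice or cultures, and p-values measure the spread between these arrays, which may be technical.

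Basophils are rare granulocytes that carry the high-affinity IgE receptor, store histamine and release IL-4, and IL-3 keeps them alive in culture. 4-Hydroxytamoxifen is the active metabolite of tamoxifen and binds estrogen receptors. It also binds the mutated receptor domain of CreER, which then enters the nucleus and recombines DNA at loxP sites. C/EBPα, the product of Cebpa, is a transcription factor of the granulocyte lineages.

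Basophil identity markers were present in all 6 arrays. Mcpt8, a basophil granule protease, gave normalized intensities of 45980.2, 49517 and 49517 with the drug and 49517, 45980.2 and 57785 without it. Cd200r3, an activating receptor of basophils, lay between 24114 and 26747 in all 6 arrays, and the 2 groups overlapped for both genes. Quantile normalization gives every array the same set of values, so the values of a probe as bright as Mcpt8 recur. Raw intensities end at 65465 to 65472 on these 6 arrays, and a change in Mcpt8 near that ceiling could be missed. Fcer1a (log2 fold change -0.11 ± 0.103, SE), Hdc (-0.17 ± 0.0878), Gata2 (0.18 ± 0.101) and Ms4a2 (-0.15 ± 0.0927) were bright and not called. Here and below, a log2 fold change is treated minus untreated on log2(quantile-normalized intensity + 16), a gene is called when limma's two-sided adjusted p is below 0.05, and each group has n = 3 arrays.

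Raw array medians were 33, 24 and 35 in the treated arrays and 37, 37 and 39 in the untreated arrays, with mean intensities of 463.0 to 482 and 558 to 597. The number of arrays limits the precision, and each array has no count depth. Arrays of the treated group correlated at 0.9903 to 0.9916 with each other across probes, and untreated arrays at 0.9930 to 0.9932. Correlations between the 2 groups were lower, at 0.983 to 0.986. The median SD of a probe was 0.0848 on the log2 scale among treated arrays and 0.0787 among untreated arrays.

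Cebpa itself was not called in wild type cells. Its intensities were 2894, 2746 and 2472 with the drug and 2219, 2533 and 2166 without it, so the ranges overlapped. The log2 fold change was 0.23 ± 0.102 (SE; limma, adjusted p = 0.147). Cebpa fell by 3.58 on the log2 scale in the Cebpa f/f cells. The difference between the genotypes was 3.80 (limma interaction, adjusted p = 3.0e-08).

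A large part of the transcriptome moved by small amounts. Of the 19084 genes, 4460 were called, 23.4%, with 2292 higher (12%) and 2168 lower (11.4%). Changes of at least 2-fold were rare, with 86 genes higher (0.451%) and 146 lower (0.765%). The 3 treated and 3 untreated arrays did not overlap for 7744 genes (40.6%). The balance of higher and lower calls depended on the scaling between arrays. Over all 26423 probes, quantile normalization gave 5396 calls (20.4%), 2834 higher (10.7%) and 2562 lower (9.70%). Median scaling gave 2073 and 980, scaling on the 75th percentile 2325 and 3320, and no normalization between arrays 1359 and 4681. Leaving the arrays unscaled moved the median of all genes to -0.10 on the log2 scale, from 0.0036 after quantile normalization. Counts of small changes therefore hold for the quantile-normalized values.

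**Figure D1:**
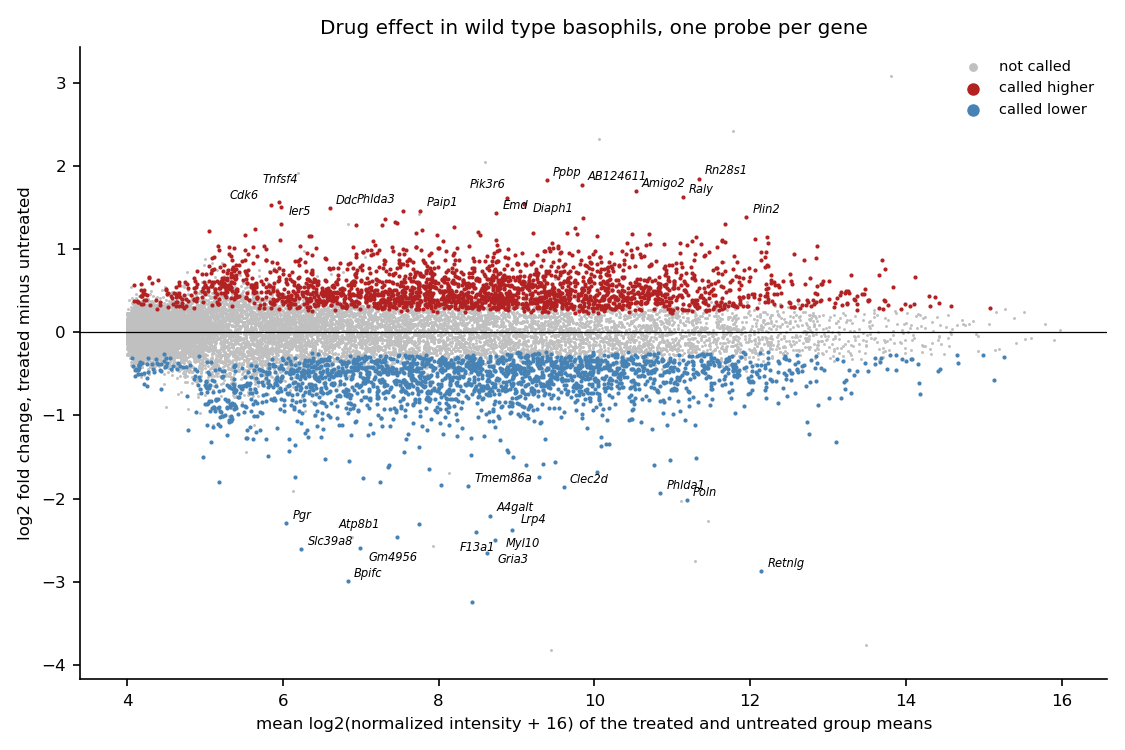
Each point is 1 gene; the x axis is its mean log2 level over the 2 wild type groups and the y axis the log2 fold change, treated minus untreated. Most of the 4460 called genes lie within 1 log2 unit of 0, and the labelled genes are the 15 highest and 15 lowest among called genes whose arrays did not overlap. Unlabelled points far from 0 did not meet both conditions or rank.

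Ppbp, which encodes pro-platelet basic protein, the precursor of the chemokine CXCL7, ranked next after the ribosomal RNA gene Rn28s1 among called genes whose arrays did not overlap. Its intensities were 1287, 1138 and 1304 with the drug and 325, 336 and 358 without it. All 3 treated arrays were above all 3 untreated arrays, a 3.54-fold difference. The log2 fold change was 1.82 ± 0.109 (limma, adjusted p = 1.37e-06). The value in Cebpa f/f cells was 1.62, and the difference between the genotypes was not called (adjusted p = 0.48). Freshly isolated basophils gave 86.7, 76.4 and 85.7 and cultured mast cells 9.3, 8.7 and 12.2, on a normalization over all 18 arrays.

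Ppbp sits in a cluster of CXC chemokine genes, and its 8 neighbours on each side in the RefSeq order of GRCm38.p6 were looked up after its value was seen. Cxcl5, the next gene on one side, was called higher at 0.82 ± 0.129 (limma, adjusted p = 0.000823), with 187, 209 and 183 against 104, 103 and 100.2. On the other side Pf4, platelet factor 4, gave 0.22 ± 0.127 and was not called, at 12679, 11615 and 12073 against 9855, 9890 and 11497. Cxcl3 (0.59) and Cxcl1 (0.71), both neutrophil attractants, were called higher. Cxcl15 was below the background limit in both groups, and Cxcl2 gave 0.29 with an adjusted p of 0.0591. Farther out, Afp, which encodes alpha-fetoprotein, was called lower at -0.53 (limma, adjusted p = 0.0188) and Mthfd2l, a mitochondrial folate enzyme, at -0.31 (adjusted p = 0.0495). The neighbours Cox18, Ankrd17, Alb, Afm, Albfm1, Rassf6, Epgn and Ereg were not called. Among Cebpa f/f cells Cxcl5 gave 0.35 (adjusted p = 0.0864), Pf4 1.00 and Cxcl3 0.02.

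Phlda3 encodes a pleckstrin-homology protein that is a direct p53 target and limits Akt at the membrane. Its intensities were 288, 307 and 281 with the drug and 90.1, 99.2 and 100.2 without it. The groups were far apart, by 2.74-fold, with a log2 fold change of 1.45 ± 0.0983 (limma, adjusted p = 3.65e-06). The Cebpa f/f cells gave 267, 275 and 321 against 89.4, 72.7 and 76.4, a log2 fold change of 1.67. The difference between the genotypes was -0.21 (adjusted p = 0.39). Phlda3 was at 8.7, 4.8 and 7.8 in freshly isolated basophils, below the background limit of 30, and at 128, 134 and 145 in mast cells, on the normalization over all 18 arrays.

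Retnlg encodes resistin-like gamma, a secreted protein abundant in granulocytes. It gave 1679.6, 1689 and 1598 with the drug and 12107, 12548 and 11972 without it. All treated arrays were far below all untreated arrays. The log2 fold change was -2.87 ± 0.111 (limma, adjusted p = 4.98e-08), a 7.32-fold difference. In Cebpa f/f cells Retnlg was already at 2264, 1776 and 1854 without the drug and at 1184, 1164 and 1451 with it, a log2 fold change of -0.63. The effects differed by -2.24 (limma interaction, adjusted p = 2.8e-06). Freshly isolated basophils gave 12133, 12588 and 13249, a range that overlapped the untreated wild type cultures (12184 to 12789 on the same normalization over all 18 arrays), and mast cells were below background at 13.2, 9.8 and 4.8.

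**Figure D2:**
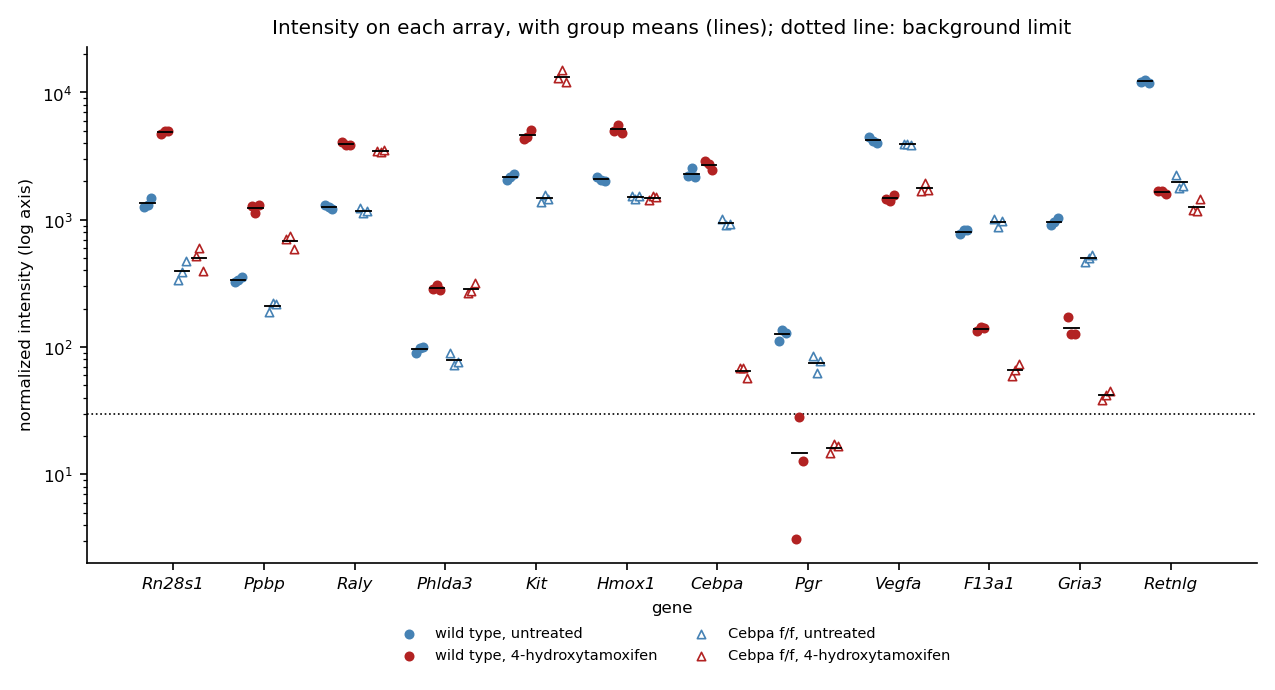
Each point is 1 array, on a log axis of normalized intensity, for 12 genes in the 4 cultured groups; black lines are group means and the dotted line is the background limit of 30. Ppbp, Raly and Phlda3 are higher with the drug in both genotypes, Hmox1 is apart only in wild type cells, and Retnlg is highest in untreated wild type cells.

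Among called genes whose arrays did not overlap, the highest fold change was that of Rn28s1, annotated to 28S ribosomal RNA. Its intensities were 4702, 4966 and 5002 with the drug and 1260.3, 1307 and 1491 without it. The log2 fold change was 1.84 ± 0.151 (limma, adjusted p = 1.21e-05), against 0.31 in Cebpa f/f cells (adjusted p = 0.19). The 6 Cebpa f/f arrays lay between 338 and 600.0, all below the wild type arrays. Freshly isolated basophils gave 636, 484 and 435 and mast cells 1667, 1784 and 1233 on the normalization over all 18 arrays, and the part of RNA quality in these levels was not tested.

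Signalling and cell surface genes were among the 15 highest. Raly, an RNA-binding protein of the hnRNP family, went from 1302, 1268 and 1222 to 4049, 3842 and 3903 (log2 fold change 1.62, and 1.54 in Cebpa f/f cells). A second, dim Raly probe was not called. Amigo2, a cell adhesion molecule, rose by 1.69 in wild type cells and fell by 1.05 in Cebpa f/f cells, and its second probe also rose in wild type cells, by 0.84. Tnfsf4, the OX40 ligand, gave 88.0, 90.4 and 88.2 against 31.9, 12.9 and 16.3 (1.56). Pik3r6, a regulatory subunit of PI3-kinase gamma, rose by 1.61, Diaph1, a formin that nucleates actin, by 1.54, and Cdk6, a cell cycle kinase, by 1.53. Ier5, an immediate early gene, was not above background without the drug and at least 3.00-fold higher with it (limma, adjusted p = 1.69e-05), and its dim second probe was not called.

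Metabolic and structural genes were also in this group. Ddc, which makes serotonin and dopamine from their amino acid precursors, gave 149.9, 149.2 and 141.5 against 43.5, 38.3 and 43.5, a log2 fold change of 1.50, and 3.08 in Cebpa f/f cells. Plin2, a coat protein of lipid droplets, gave 6631, 6036 and 6463 against 2421, 2222 and 2660 (1.39, and 0.59 in Cebpa f/f cells). Emd, the nuclear envelope protein emerin, rose by 1.43. Paip1, which binds the poly(A)-binding protein, rose by 1.46, against 0.05 in Cebpa f/f cells. AB124611 rose by 1.77.

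Genes that fell included transporters, enzymes and receptors at the cell surface. Gria3, an AMPA-type glutamate receptor subunit, went from 908, 961 and 1039.8 to 172, 128 and 128, a log2 fold change of -2.65 ± 0.114 (limma, adjusted p = 1.39e-07). F13a1, the A chain of coagulation factor XIII, went from 769, 827 and 825 to 133, 145 and 142 (-2.40). In Cebpa f/f cells they fell by 3.16 and 3.56, and the difference between the genotypes was called for F13a1 (1.16) and not for Gria3. A4galt, the enzyme that makes the glycolipid Gb3, went from 852, 837 and 876 to 175, 171 and 174 (-2.20, and -2.51 in Cebpa f/f cells). Slc39a8, the metal ion importer ZIP8, was not above background in any treated array and at least 5.67-fold lower than in the untreated arrays (limma, adjusted p = 2.15e-06). Bpifc, a member of the lipid-binding BPI fold family, gave 25.2, 35.6 and 13.8 against 307, 337 and 262 (-2.99). Tmem86a, a lysoplasmalogenase, fell by 1.85, and Gm4956, a predicted gene, by 2.60, against -0.17 in Cebpa f/f cells.

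Pgr encodes the progesterone receptor, a classic target of the estrogen receptor. It was at 112, 137 and 129 without the drug and at 3.1, 28.1 and 12.8 with it, below the background limit on all 3 treated arrays. The difference was at least 4.19-fold (limma on the measured values, log2 fold change -2.29 ± 0.228, adjusted p = 4.35e-05). Pgr gave -1.50 in Cebpa f/f cells. Mast cells had 1701, 1674 and 1602 and freshly isolated basophils 11.6, 25.2 and 13.6 on the normalization over all 18 arrays.

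For 5 more genes among the 15 lowest the difference between the genotypes was called. Lrp4, a receptor of the LDL receptor family, went from 1110.0, 1097 and 1103 to 212, 205 and 186 (-2.37, against -0.47 in Cebpa f/f cells). Phlda1, a relative of Phlda3, went from 3349.5, 3703 and 3668 to 921, 846 and 1020.1 (-1.93, against -0.20), and its second probe fell by 1.27. Poln, a DNA polymerase, fell by 2.01, against a rise of 0.48. Clec2d, a lectin-like ligand, fell by 1.86 and Myl10, a myosin light chain, by 2.50, against -0.27 and -0.64; the second, dim Myl10 probe was not called. Atp8b1, a phospholipid flippase, gave 6.2, 9.8 and 254 against 267, 257 and 314, with 1 treated array near the untreated arrays. Its call (limma, adjusted p = 0.0256) was lost without treated replicate 1 (adjusted p = 0.104) or 2 (0.102) and without untreated replicate 1 (0.0614), 2 (0.0615) or 3 (0.0748).

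Targets of the tumour suppressor p53 were the first gene group examined, since p53 turns on cell cycle arrest, repair and death genes under DNA damage and other stress. Of 45 measured targets 16 were called higher, 35.6% against 12% of all genes, and 4 lower, 8.89% against 11.4%. Here and below, the shares of all genes include 6769 genes at background in both groups, so they are not shares of expressed genes. Such genes were 5 of the 45 targets, and, for example, 0 of 31 lysosome genes and 7 of 14 T and NK genes. The median log2 fold change of the targets was 0.20, beside 0.0036 for all genes. Counts followed the scaling, with 13 higher and 1 lower under median scaling, 14 and 7 under 75th percentile scaling, and 9 and 10 without normalization. The Cebpa f/f cells had 11 of the 45 targets higher and 10 of the 45 lower, with a median of 0.01. Both are larger shares than those of all genes, 10.6% higher and 10.5% lower.

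Among the arrest and feedback genes, Cdkn1a, which encodes the cell cycle inhibitor p21, gave 4033, 4181 and 4371 with the drug and 2779, 2837 and 2625 without it. Its log2 fold change was 0.61 ± 0.0852 (limma, adjusted p = 0.000371), and the arrays did not overlap. Ccng1, a cyclin G gene, gave 5602, 5813 and 5429 against 4344, 4652 and 4049 (0.37). Mdm2, the ligase that degrades p53, gave 2809, 2558 and 2224 against 2013, 1897 and 2074 (0.33, adjusted p = 0.0341). Btg2, an antiproliferative gene, rose by 0.73 in wild type cells and fell by 0.72 in Cebpa f/f cells, and its dim second probe was not called. Ppm1d, a phosphatase that dampens the response, rose by 0.39.

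Death and stress members were also among the called. Ei24, an endoplasmic reticulum protein, gave 934, 919 and 856 against 462, 422 and 465 (0.98), and its second probe rose by 0.94. Pmaip1, the BH3-only protein Noxa, gave 423, 433 and 443 against 276, 275 and 276 (0.62), while in Cebpa f/f cells it fell by 0.75. Apaf1, the apoptosome scaffold, rose by 0.53, Pidd1 by 0.46 and Sesn1, a sestrin, by 0.67. Tnfrsf18, the receptor GITR, rose by 0.71, and Trp53inp1 by 0.50. Bbc3, the BH3-only protein Puma, gave -0.11, and the death receptor Fas -0.19, and neither was called. The 4 lower members were Perp (-0.60), Fbxw7 (-0.55), Ninj1 (-0.51) and Dglucy (-0.40). Ephx1 (0.54), Icam1 (0.47) and Dcxr (0.38) were the remaining called members.

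**Figure D3:**
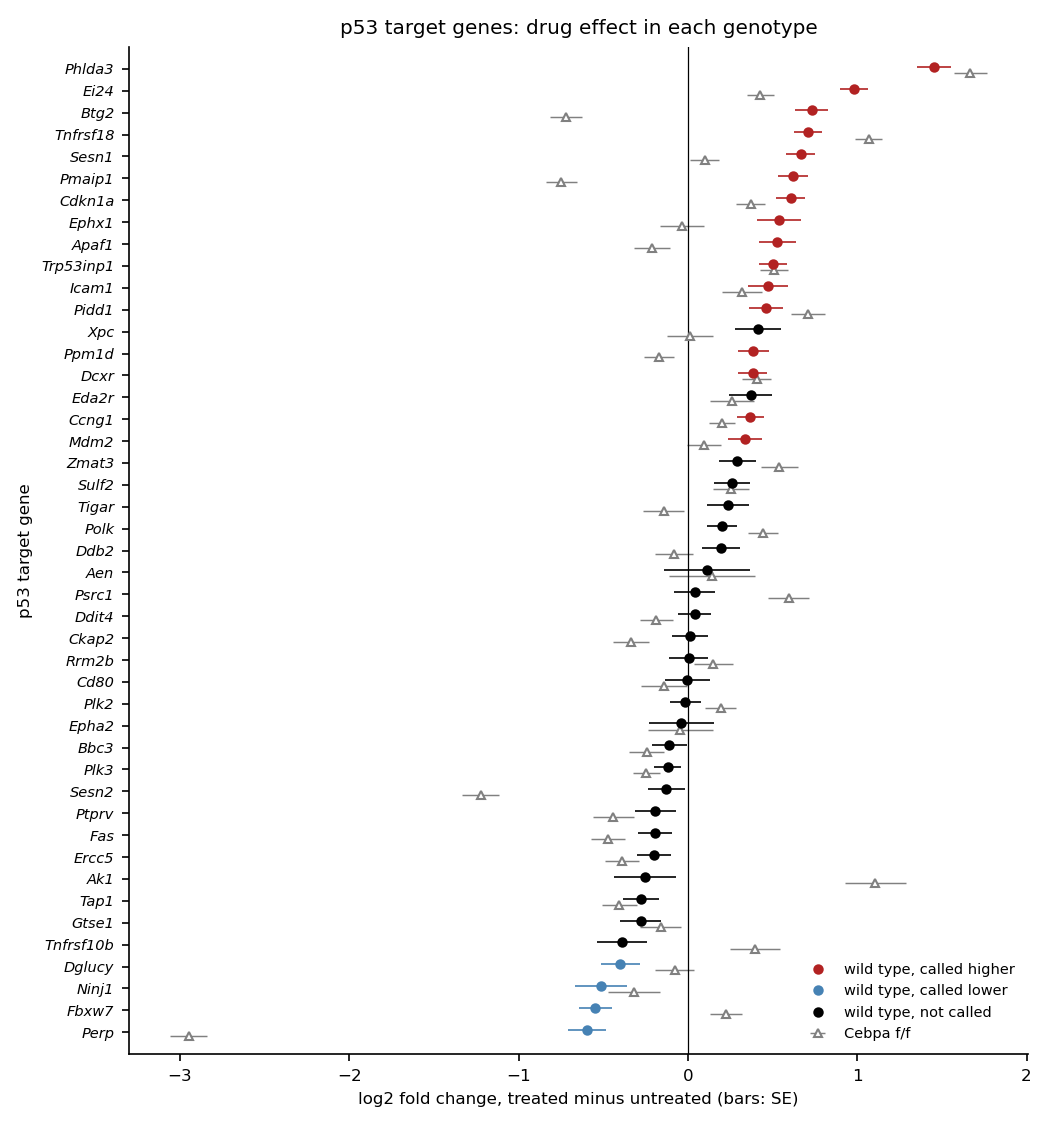
Each row is 1 of the 45 measured p53 targets, with its log2 fold change and SE in wild type cells (filled circles, coloured where called) and in Cebpa f/f cells (open triangles). The called higher wild type members run from 0.33 (Mdm2) to 1.45 (Phlda3), and several triangles, such as those of Btg2 and Pmaip1, lie on the other side of 0.

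The promoters of called p53 targets are shown because the decamer that p53 binds is a known sequence, which allows a search of their windows. RefSeq windows (GRCm38.p6, 250 bases before to 50 after each start) were matched for 14967 of the 19084 genes. A gene with several starts had several windows and counted as a match when any of them held the motif. The decamer, searched on both strands, was found for 8.59% of all matched genes, 8.73% of called higher genes and 8.26% of called lower genes. It was in 10 of the 36 matched p53 targets (27.8%) and in 6 of the 14 matched targets called higher (42.9%). The list is made of genes known as p53 targets, so a raised share in it is not a result of these arrays. Phlda3 had no match in its window, which says nothing of sites elsewhere. Capitals mark the decamer.
Cdkn1a, chr17:29090886-29090957, + strand: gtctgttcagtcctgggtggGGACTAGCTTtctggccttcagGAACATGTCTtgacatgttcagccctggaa
Mdm2, chr10:117710915-117710964, - strand: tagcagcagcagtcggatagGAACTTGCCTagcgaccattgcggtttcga
Ccng1, chr11:40755442-40755491, - strand: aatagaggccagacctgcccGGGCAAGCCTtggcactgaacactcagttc
Sesn1, chr10:41887246-41887295, + strand: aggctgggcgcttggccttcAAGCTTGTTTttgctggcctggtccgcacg
Ei24, chr9:36797315-36797364, - strand: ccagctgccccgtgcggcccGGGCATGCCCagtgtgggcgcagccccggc
Ppm1d, chr11:85311102-85311151, + strand: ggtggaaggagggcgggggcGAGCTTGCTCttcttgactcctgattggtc
The stretch shown for Cdkn1a held 2 decamers and the other 5 stretches 1 each. A decamer farther along a window would lie outside the stretch shown. The core of nuclear receptor sites, AGGTCA on either strand, was found for 16.3% of all matched genes and for 16.5% of called lower genes. Among matched genes changed by at least 2-fold it was found for 29 of 120 lower genes (24.2%) and 15 of 72 higher genes (20.8%). The full palindrome of the estrogen response element was found for 5 of the 14967 genes, and for none of the 120.

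DNA damage and cell cycle lists had calls in both directions. Of 31 damage and repair genes 9 were higher (29.0%, beside 12% of all genes) and 5 lower (16.1%, beside 11.4%), with a median of -0.00037, and without normalization 3 were higher and 10 lower. Rad52, a recombination protein, rose by 0.82 on one probe and by 0.25 on a second of like brightness, so the size of its change is uncertain. Rnf8, a ubiquitin ligase at DNA breaks, was not above background without the drug and at least 1.53-fold higher with it (limma, adjusted p = 0.000555). Trp53bp1, which marks double-strand breaks, went from 749.8, 699.5 and 753 to 437, 480.3 and 421 (-0.70). Nbn gave 6.2, 3.0 and 50.6 against 56.1, 61.6 and 95.8, with 1 treated array near the untreated ones, and its call was lost without treated replicate 1 (adjusted p = 0.0651) or 2 (0.0653) or untreated replicate 3 (0.0646). Of 28 mitosis genes 5 were higher (17.9%), among them Cdca8 (0.73), Ube2c (0.60) and Aurkb (0.48), and 1, the kinase Plk1, was lower (-0.64), while without normalization 3 were higher and 6 lower. Of 30 replication genes 2 were higher (6.67%), with the flap endonuclease Fen1 at 0.96, and 6 lower (20.0%), with the primase Prim1 at -0.82. Median scaling gave 1 higher and 3 lower, no normalization 1 and 8, and scaling on bright probes 5 and 4.

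Calls in the cholesterol list were mostly lower and those in the fatty acid list were higher. Of 20 measured genes of cholesterol synthesis and uptake 7 were lower (35.0%, beside 11.4% of all genes) and 1 higher, with a median of -0.18. Fdft1, squalene synthase, gave 161, 138 and 152 against 310.2, 339 and 334 (-1.05 ± 0.120, limma, adjusted p = 0.000102), and its dim second probe was not called. Idi1, an isomerase of the pathway, fell by 0.86, Cyp51, which demethylates lanosterol, by 0.60, and Insig1, the sterol sensor, by 0.60. Without normalization 11 members were lower and under median scaling 2, with medians of -0.31 and -0.02. Of 16 fatty acid genes 5 were higher (31.2%, beside 12% of all genes) and none lower, and without normalization 1 was higher and 1 lower. Scd1, the stearoyl-CoA desaturase, gave 445, 376 and 349 against 235, 248 and 217 (0.70), and Elovl5, a fatty acid elongase, 11972, 11797 and 11078 against 8073, 8591 and 8134 (0.49). Idi1 gave -0.02 and Scd1 -0.31 in Cebpa f/f cells.

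Lysosomal and sterol efflux genes were mixed. Of 31 lysosome genes 8 were higher (25.8%, beside 12% of all genes) and 6 lower (19.4%, beside 11.4%), and without normalization 6 were higher and 12 lower. They were led by Lipa, lysosomal acid lipase, which fell by 1.11, and by Gaa (0.82), Cln3 (0.80) and Asah1 (0.80), which rose. Of 13 LXR and efflux genes 5 were higher (38.5%) and 4 lower (30.8%), and both median scaling and no normalization left 1 higher, with 3 and 4 lower. Abca1 (0.38) and Abcg1 (0.38), the cholesterol exporters, and Apoe (0.68) rose, and Lpcat3 fell by 0.82. Lpcat3's dim second probe was not called, and averaging the probes ended its call (adjusted p = 0.0566).

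The estrogen list had more lower than higher calls. Of 21 measured, 7 were lower (33.3%, beside 11.4% of all genes) and 2 higher (9.52%, beside 12%), with a median of -0.07, and median scaling gave 3 lower. Besides Pgr, Gata3 fell by 0.59, and Ncoa3, a receptor coactivator, fell by 0.69 on its brighter probe and rose by 0.53 on the other, so its direction is uncertain. Ctsd, cathepsin D, rose by 0.76. Esr1, the estrogen receptor alpha gene, gave 478, 463 and 420 against 407, 429 and 424 and was not called (0.11). Of 21 xenobiotic genes 5 were higher (23.8%), among them the transporter Abcc3 (0.75), and 2 lower.

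Stress pathways had calls in both directions. In the oxidative stress list 4 of 20 genes were higher (20.0%, beside 12% of all genes) and 2 lower, and 3 and 3 without normalization. Hmox1, heme oxygenase, gave 4952, 5602 and 4829 with the drug and 2157, 2049 and 2015 without it, 1.30 ± 0.0827 on the log2 scale (limma, adjusted p = 2.34e-06). Hmox1 gave -0.02 in Cebpa f/f cells, and the difference was called (adjusted p = 2e-05). Slc7a11, the cystine importer, rose by 0.73 and Nfe2l2, the NRF2 gene, by 0.44, again without a call in Cebpa f/f cells. In the unfolded protein and integrated stress list 5 of 29 genes were higher (17.2%) and 8 lower (27.6%, beside 11.4% of all genes), and 4 were higher and 3 lower under median scaling. Pdia4 rose by 1.01, Cebpb by 1.07, Atf5 fell by 1.12 and Mthfd2 by 0.84, while Hspa5, the chaperone BiP, gave 1820.0, 1902 and 2168 against 2623, 2793 and 2850.1 (-0.49).

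Heat shock genes fell in 3 of 11 cases (27.3%, beside 11.4% of all genes) and rose in 1, with Hspb1 at -0.92, and median scaling gave 1 in each direction. Of 23 glycolysis and hypoxia genes 7 were lower (30.4%) and 2 higher, with a median of -0.15. Under median scaling 3 were lower and 1 higher, and without normalization 13 and 1, with medians of -0.09 and -0.37. Vegfa, a hypoxia-induced growth factor, gave 1451, 1410 and 1578 against 4506, 4159.6 and 4033 (-1.51 ± 0.0878, limma, adjusted p = 1.12e-06). It also fell in Cebpa f/f cells, by 1.14. Aldoc fell by 0.60 and P4ha1 by 0.47. Of 20 BCL2 family and death genes 7 were higher (35.0%, beside 12% of all genes) and 2 lower, but 4 were higher and 7 lower without normalization. Among them were Casp8, an initiator caspase, at 1.02, Bcl2l1, which encodes Bcl-xL, at 0.82 and Bak1 at -0.79.

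Among secreted factors 11 of 41 cytokine and chemokine genes were higher (26.8%, beside 12% of all genes) and 8 lower (19.5%, beside 11.4%), and 9 and 11 without normalization. Lif, a cytokine of the IL-6 family, went from 585, 660.4 and 789.8 to 297, 256 and 244 (-1.30). Cxcl10 fell by 0.96 and Il4, the signature basophil cytokine, from 248, 261 and 238 to 169, 153 and 154 (-0.60). Of 34 receptor genes 8 were higher (23.5%) and 11 lower (32.4%). Tnfrsf1a, a TNF receptor, went from 339, 369 and 376 to 187, 197 and 165 (-0.92) and Il2ra fell by 0.85. Ccr2 fell by 1.34 on one probe and gave 0.01 on a probe of like brightness, so its change is uncertain.

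Kit, the receptor for stem cell factor and a mast cell and progenitor marker, gave 4324, 4479 and 5109.5 with the drug and 2040.1, 2162 and 2285 without it. The log2 fold change was 1.09 ± 0.104 (limma, adjusted p = 3.33e-05), and all treated arrays were higher. It rose by 3.16 in Cebpa f/f cells. Of 21 mast cell markers 9 were higher, 42.9% against 12% of all genes, and 4 lower, with a median of 0.28, and 5 were higher and 3 lower under median scaling, and 5 and 5 without normalization. Slc6a4, the serotonin transporter, rose by 1.06, and Mcpt2, a mast cell protease, by 1.03, whereas the tryptases Tpsb2 and Tpsg1 fell by 0.93 and 0.85. Mitf, a mast cell transcription factor, gave 445, 412 and 395 against 553, 582 and 574 (-0.44 ± 0.0813, limma, adjusted p = 0.00242), where Cebpa f/f cells gave 2.06. The summed intensity of the mast cell list was 139109 to 142643 with the drug and 122684 to 123419 without it, Mrgprb1, Mrgprb2 and Tpsab1 were at background in all 6 arrays, and the part of other cells in the result was not tested.

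Of 24 basophil markers 3 were higher and 3 lower (12.5% each, beside 12% and 11.4% of all genes), with a summed intensity of 333544 to 341284 against 323532 to 328077. That balance followed the scaling, with 1 higher and 0 lower under median scaling. Under 75th percentile scaling 2 were higher and 7 lower, and without normalization 1 and 8. The basophil list members Cyp11a1, Hgf and Itga2b were at background in all 6 arrays. Ifitm1 rose by 1.25 and Cd69 by 0.50, and Il4 was among the lower. Of 18 megakaryocyte and platelet genes 8 were higher (44.4%, beside 12% of all genes) and 2 lower (11.1%, beside 11.4%), with a median of 0.30, and 7 or 8 were called higher under each scaling. Ppbp belongs to this list. Gp1bb (0.90), Gp5 (0.87) and Gp6 (0.85) encode platelet glycoproteins. Gp5 gave 255, 241 and 264 with the drug and 134, 126 and 134 without it. The platelet list summed to 24962 to 26673 with the drug and 24288 to 25800 without it, ranges that overlap. The part of its brightest members in that sum was not tested. Its members Itga2b and Tubb1 were at background in all 6 arrays.

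Neutrophil genes and T and NK genes had calls in both directions, eosinophil markers only lower calls and B cell markers only higher calls. Of 23 neutrophil genes 7 were higher and 7 lower (30.4% each, beside 12% and 11.4% of all genes), with 6 and 2 under median scaling and 5 and 11 without normalization, and their summed intensity fell from between 43336 and 45053 to between 31554 and 33036. Retnlg, with group means of 12209 and 1655, is part of that sum. Cd177, Olfm4 and S100a8 were at background in all 6 arrays. Mpo, myeloperoxidase, rose from 808, 766 and 728 to 1470.1, 1491 and 1397 (0.91) and Elane, neutrophil elastase, by 0.93, both of which fell in Cebpa f/f cells, by 2.52 and 1.24. Of 7 eosinophil markers none was higher and 2 were lower (28.6%, beside 11.4% of all genes), Prg2 (-0.33) and Alox15 (-0.29). Median scaling left none of them called. The eosinophil list summed to 3764 to 4006 with the drug and 4688 to 4851 without it. Of 14 T and NK genes 1 was higher, Nkg7 (0.77), and 1 lower, the granzyme Gzma, which went from 3314, 3417 and 3535 to 1250.2, 1143 and 1108 (-1.54). The T and NK list summed to 1682 to 1826 with the drug and 3727 to 3985 without it, Gzma included. The lymphocyte markers Cd3d, Cd4, Cd5, Klrb1c, Klrd1, Ncr1 and Prf1 were at background in all 6 arrays. Of 10 B cell markers 2 were higher (20%, beside 12% of all genes), Vpreb3 (0.93) and Cd79b (0.65), and none was lower. The B cell list summed to 1188 to 1242 with the drug and 819 to 889 without it. Its members Blnk, Ebf1, Ms4a1 and Pax5 were at background in all 6 arrays. In bulk arrays fewer cells of a type and less RNA per cell cannot be told apart.

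**Figure D4:**
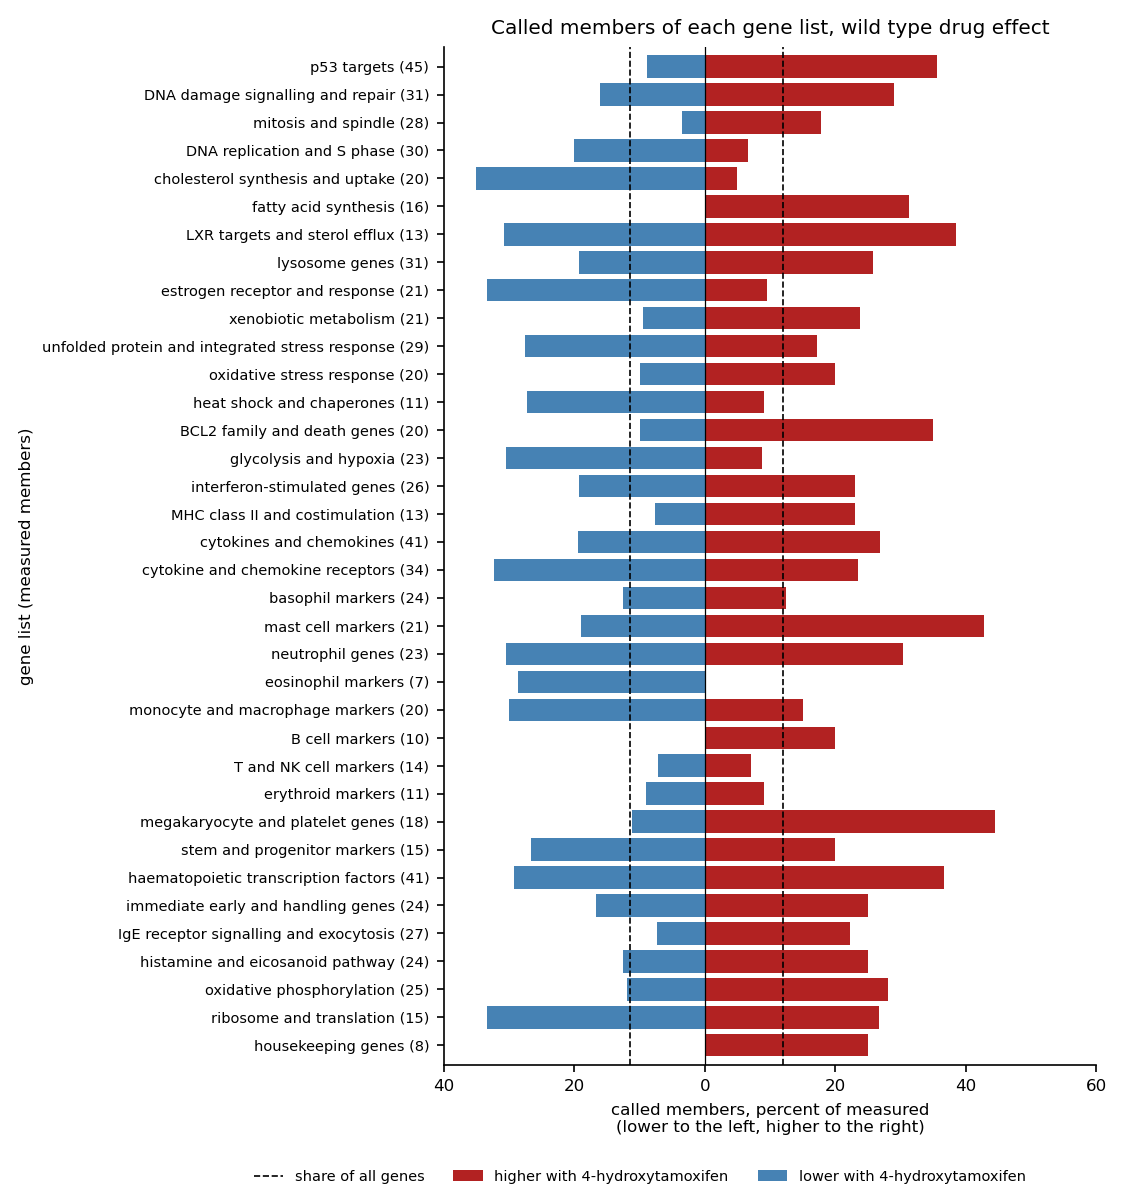
Bars give the percent of measured members called higher (right) and lower (left) for 36 gene lists, and dashed lines the shares of all genes, 12% and 11.4%. All genes include 6769 at background in both groups. The platelet list reaches furthest to the right, at 44.4%, followed by mast cell markers (42.9%), LXR targets (38.5%), haematopoietic transcription factors (36.6%) and p53 targets (35.6%), and cholesterol synthesis reaches furthest to the left, at 35.0%.

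Transcription factors and early genes moved in both directions. Of 41 haematopoietic factors 15 were higher (36.6%, beside 12% of all genes) and 12 lower (29.3%, beside 11.4%), and 7 were higher and 14 lower without normalization. The lower ones included Klf4 at -1.26, Gfi1b, a repressor of erythroid and megakaryocyte cells, at -1.01, and Irf4, at -0.99. Myb fell by 0.77 in wild type cells and rose by 1.55 in Cebpa f/f cells. Of 24 immediate early genes 6 were higher (25.0%) and 4 lower (16.7%), 4 and 8 without normalization, with Fos at 0.94, Zfp36 at 0.78 and Dusp2 at -1.03. In the IgE receptor list 6 of 27 were higher (22.2%) and 2 lower (7.41%), 1 and 10 without normalization, with the phosphatase gene Inpp5d at 0.48 and Vamp8 at 0.46. Gab2 (0.72) had a second probe that was not called.

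Scaling ended some calls of small changes. Under median scaling Mitf, Cyp51, Insig1, Elovl5, Gata3, Nfe2l2, P4ha1, Il4, Cd69 and Vamp8 kept their direction and were no longer called. Without normalization Elovl5, Nfe2l2, Cd69, Inpp5d and Vamp8 were no longer called. With all 18 arrays in the fit, Pdia4 stayed at 1.02 and Ephx1 at 0.54, and neither was called (limma, adjusted p = 0.187 and 0.0571).

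Comparing the genotypes, 232 wild type genes changed by at least 2-fold, and 186 of them (80.2%) had the same sign in Cebpa f/f cells, beside 59.8% of all genes. These contrasts share no arrays. Of the 232, 121 were called the same way in Cebpa f/f cells, 19 the opposite way and 92 not called. Among all 19084 genes these counts were 2990, 1036 and 15058. The difference between the genotypes was called for 132 of the 232, beside 2482 of all 19084 genes (13%). The wild type effect that chose the 232 is part of that difference, which raises their share. In Cebpa f/f cells 283 genes were at least 2-fold higher (1.48%) and 270 lower (1.41%), among 4026 called (21.1%). Of the 86 genes higher by at least 2-fold, 20 were also at least 2-fold higher in Cebpa f/f cells, 23.3% of the wild type and 7.07% of the Cebpa f/f genes of that size. Of the 146 lower, 32 were shared, 21.9% and 11.9%. Log2 fold changes in the 2 genotypes correlated at 0.318 across all 19084 genes and 0.583 across the 232, values across genes that are not independent replicates. The 232 leave out small wild type effects, and within 1 direction the correlation was lower. It was 0.186 across the 86 higher genes and 0.329 across the 146 lower genes.

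**Figure D5:**
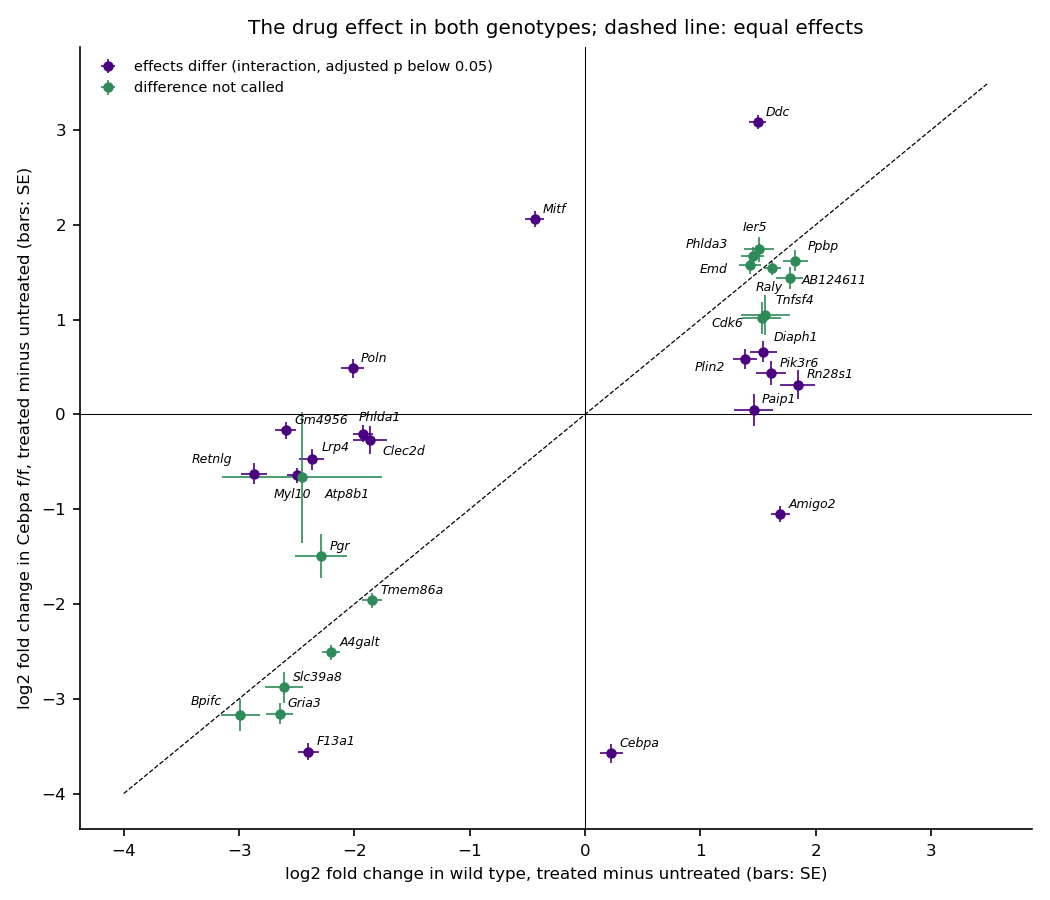
Each point is 1 gene of the 15 highest, 15 lowest and fixed genes, with its log2 fold change and SE in wild type (x axis) and Cebpa f/f cells (y axis). Phlda3, Ppbp, Raly, Bpifc and Tmem86a lie by the dashed line of equal effects, whereas Amigo2, Poln, Cebpa and Mitf have opposite signs or lie near 0 in one genotype.

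The genes most like the 3 marker genes were ranked over the 12 cultured arrays among 8568 genes, as a description. Those most like Phlda3 were Hsbp1 (Pearson r = 0.997), Ly6e, Raly, Emd and Atp6v0e. Those most like Ppbp were Taz (0.991), Socs1, Rfc2, Gatd1 and Cert1. Those most like Retnlg were Myo1g (0.971), Trex1, E330020D12Rik, Krt83 and Aldh3b1.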

How the data were processed

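RNA was extracted with Trizol and RNeasy and labelled with a Cy5.5 dye, per the labels' protocols. The authors deposited one linear intensity per probe and array, which reaches 65478 and falls below 0; from the values it is background-subtracted and not scaled between arrays, and no source used here names the scanner software. The 12 cultured arrays were quantile-normalized, 16 was added and log2 taken. limma 3.58.1 in R 4.3.3 fitted a mean per group, with p-values adjusted by Benjamini-Hochberg over all 26423 probes, and the interaction is the wild type effect minus the Cebpa f/f effect. A group with all 3 arrays under 30 counts as not above background, and a fold against it uses 30 as a floor, giving "at least".

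Genes named are the 15 highest and 15 lowest called genes whose arrays did not overlap, Cebpa, Mitf, Phlda3, Ppbp and Retnlg, up to 4 called members of each of 36 lists, and the 5 highest and 5 lowest interactions. Not every list or list member that this rule names is printed. Other members were named after their values were seen. The members, lists and rule were chosen with earlier results of these data known. Probe symbols are GEO's platform annotation. The fit was tested on simulated data. Alternatives covered the scaling, offset, dim probes, several probes per gene and each array left out.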

Additional observations from a re-analysis of the deposited data

Results flagged for a closer look

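The effect of the drug in wild type cells differed from that in Cebpa f/f cells by limma's interaction test for 7 of the 15 highest and 8 of the 15 lowest wild type genes, beside 13% of all genes. These genes were ranked on the wild type effect, which is part of the interaction, and the values below are the wild type effect minus the Cebpa f/f effect on the log2 scale. Among the wild type genes that rose, the difference was 1.53 for Rn28s1, 2.75 for Amigo2, 1.17 for Pik3r6, 0.88 for Diaph1, 1.41 for Paip1 and 0.80 for Plin2. For Ddc, the decarboxylase of serotonin synthesis, it was -1.59, since the rise was larger in Cebpa f/f cells. Among genes that fell it was -2.24 for Retnlg, -2.43 for Gm4956, -1.86 for Myl10, -1.90 for Lrp4, -2.50 for Poln, -1.73 for Phlda1 and -1.59 for Clec2d. For F13a1, which fell more in Cebpa f/f cells, it was 1.16.

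The 5 highest and 5 lowest differences were chosen by rank on the interaction itself and are given as a description. The highest were 3.80 for Cebpa, 4.47 for the tight junction gene Cldn11, 4.17 for the ectonucleotidase Nt5e, 3.47 for Igsf6 and 3.42 for Mpo. The lowest were -4.44 for Tpsg1, -4.13 for the growth factor Igf2, -4.00 for Tpsb2, -3.73 for Clca1 and -3.34 for Mcpt2, and Mitf gave -2.50. Clca1, a secreted protease of the calcium-activated chloride channel family, itself fell by 1.60 in wild type cells, and Nt5e rose by 0.70. Of 115 other list members named, 57 also passed the interaction test, beside 13% of all genes, and they were named for their wild type effects, which enter it. Among the 4547 probes without a gene symbol, which the gene counts leave out, 223 were higher with the drug in wild type cells, 4.90% of them, and 217 lower, beside 10.7% and 9.70% of all probes.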

How the results depend on the processing

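Counts of called probes kept within 1.5 times under every other alternative, and the exceptions came from scaling. In wild type cells median scaling gave 3053 calls, 2073 of them higher and 980 lower, and no normalization gave 1359 higher and 4681 lower. In Cebpa f/f cells median scaling gave 3166 calls, 1139 of them higher. For the interaction median scaling gave 1494 calls, 415 of them lower, and no normalization 701 higher and 2643 lower. Leaving out each array in turn gave 4041 to 4884 calls in wild type cells (2144 to 2556 higher, 1897 to 2328 lower), 3920 to 4563 in Cebpa f/f cells and 2288 to 2893 for the interaction. Without normalization Cd274 changed sign, to -0.031 (adjusted p = 0.866). Over all named genes and alternatives 2848 results kept direction and side of the threshold, 113 lost the call, 1 gained it and 1 reversed; of the 30 ranked genes, Atp8b1 was the exception. Why scaling moved the counts was not tested.

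Same-numbered wild type arrays correlated at 0.0106 to 0.123 in their deviations from the group means, and 5 of 6 correlated best with their own number, a hint from the data and not the design. It did not hold in Cebpa f/f cells, where same-numbered arrays gave -0.376, 0.0178 and -0.121. Over all cultured basophil groups same-numbered pairs gave -0.376 to 0.155 and different-numbered pairs -0.306 to 0.356. With a replicate block the counts were 4858 in wild type, 4414 in Cebpa f/f cells and 2444 for the interaction, and 2 of 156 named calls changed. Scaling on bright probes and leaving out 75 probes that switch between arrays of a group were chosen after seeing the data. Signal near background limits the dim genes to bounds.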
